A study of Mus musculus with 14 samples.

Results

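The genes described here are 10 transcription factor genes that direct the first lineage decisions of the embryo, taken by name from the 21887 protein-coding genes of the RefSeq gene table. T (Brachyury), Mesp1, Hand1, Eomes, Gsc and Mixl1 act in the primitive streak and mesoderm, and Pax6, Sox1, Neurog1 and Zic1 act in the neural lineage. For each gene, every listed region that touched the gene body or the 20000 bp to either side was collected from all 7 peak lists of the series. The cells were E14 mouse embryonic stem cells grown on gelatin in medium with serum, LIF and the 2 inhibitors PD0325901 and CHIR99021, which hold them in the naive pluripotent state. They had received doxorubicin, an anthracycline that traps topoisomerase II on cut DNA, at 1 µM for 6 h, or the DMSO vehicle, and were kept without drug for a further 6 h. The acetylated histone mark H3K27ac, found at active promoters and enhancers, and the heterochromatin mark H3K9me3 were each profiled by ChIP-seq in cells of either treatment. A further 3 groups were an HA ChIP of cells whose p53 carried the HA epitope tag, the same ChIP in untagged cells, and input chromatin from cells given doxorubicin. No treatment is named in the titles of either HA ChIP, and the labels do not say how the tagged p53 was expressed.

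Each of the 7 groups had 2 libraries, which the authors pooled into 1 peak list, so no comparison below has a replicate check and none carries a p-value. The lists were called on 20647895 fragments for vehicle H3K27ac and 17036528 for doxorubicin H3K27ac, 15992125 and 14402634 for H3K9me3, 45238471 for p53, 49588950 for the untagged ChIP and 16583331 for the input. A pileup is the number of fragments that cover the summit of a region, and it is given here also per 1000000 fragments of its list (FPM). Intervals of a ratio of pileups are 95% exact binomial intervals that cover counting error only. The lowest listed H3K27ac pileup was 9 fragments in vehicle (0.436 FPM) and 8 in doxorubicin (0.470 FPM), and a stretch below that level is absent from a list whether or not it holds some of the mark. The unlisted level named below is 1 fragment less, 8 in vehicle and 7 in doxorubicin. It was set from the lowest listed pileup and is not a ceiling, as short stretches above it may also be unlisted. Gene coordinates are on mm10 from RefSeq, which gives no exons in the table used. In bulk chromatin, fewer cells with the mark and less of it per cell cannot be told apart. The embryonic stem cell markers Pou5f1, Nanog, Sox2, Esrrb and Zfp42 all had H3K27ac within 20000 bp in both treatments, with highest summits of 5.86 to 11.8 FPM in vehicle and 3.76 to 11.7 in doxorubicin. Of the fibroblast markers Col1a1, Col1a2, Thy1, Twist2 and Snai2, 2 were marked after vehicle and 4 after doxorubicin, with no summit above 2.37 FPM, and their part in the results was not tested.

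As background, T and Eomes are T-box factors, Gsc, Mixl1 and Pax6 carry homeodomains, Mesp1, Hand1 and Neurog1 are basic helix-loop-helix factors, Sox1 has an HMG box and Zic1 has zinc fingers. In pluripotent cells such genes are mostly silent or weakly transcribed, and many are held by Polycomb repressive complexes at CpG-rich starts until a differentiation signal arrives. Acetylation and Polycomb methylation compete for lysine 27 of histone H3, so H3K27ac at these loci is usually sparse before differentiation.

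The RefSeq promoter table (GRCm38.p6, the assembly behind mm10) held 9 starts of 8 of the genes, with Hand1 and Mixl1 not matched. The 250 bases upstream of 4 of these starts are shown as examples with an H3K27ac summit within 1000 bp, in both treatments at Sox1 and Eomes, in vehicle alone at Neurog1 and in doxorubicin alone at Mesp1. T had such a summit in vehicle alone and Zic1 in doxorubicin alone, and their stretches are not printed because they overlap the neighbouring protein-coding genes LOC115486424 and Zic4. The printed Sox1 and Eomes stretches lie inside the non-coding RNAs Sox1ot and Gm33408. The 4 printed stretches lie at chr8:12395269-12395518 on the plus strand, chr9:118477939-118478188 on the plus strand, chr13:56252181-56252430 on the minus strand and chr7:79793591-79793840 on the minus strand. They read 5′ to 3′ along the gene, and capitals mark the CG dinucleotides.
Sox1: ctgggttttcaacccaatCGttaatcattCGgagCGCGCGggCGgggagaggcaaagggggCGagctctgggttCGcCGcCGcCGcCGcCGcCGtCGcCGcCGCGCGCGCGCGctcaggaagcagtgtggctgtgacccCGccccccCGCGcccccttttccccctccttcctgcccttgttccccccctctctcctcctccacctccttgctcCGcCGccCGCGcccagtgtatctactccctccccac
Eomes: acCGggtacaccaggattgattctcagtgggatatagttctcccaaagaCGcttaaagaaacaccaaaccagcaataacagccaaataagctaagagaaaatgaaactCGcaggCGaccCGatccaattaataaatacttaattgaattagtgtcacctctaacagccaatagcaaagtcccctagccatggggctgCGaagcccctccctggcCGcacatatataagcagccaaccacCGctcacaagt
Neurog1: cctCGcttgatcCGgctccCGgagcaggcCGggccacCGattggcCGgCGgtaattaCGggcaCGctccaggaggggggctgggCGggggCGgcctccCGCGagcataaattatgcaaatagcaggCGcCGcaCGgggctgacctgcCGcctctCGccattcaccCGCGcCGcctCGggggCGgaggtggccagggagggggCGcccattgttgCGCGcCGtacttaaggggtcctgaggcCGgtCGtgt
Mesp1: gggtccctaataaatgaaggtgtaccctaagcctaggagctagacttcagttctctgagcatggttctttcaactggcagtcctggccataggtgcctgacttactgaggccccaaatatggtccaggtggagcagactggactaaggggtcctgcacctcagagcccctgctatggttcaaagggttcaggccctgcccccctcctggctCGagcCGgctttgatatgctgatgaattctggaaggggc
Sox1 and Neurog1 each held 29 CG dinucleotides in these 250 bases, Eomes 8 and Mesp1 2. The median over the 32841 promoters of the table without unknown bases was 6, and 8 of the 9 starts of these genes exceeded it, Mesp1 being the exception. T had 14, Gsc 22, both Pax6 starts 15 and Zic1 27. The sequence TATAAA on the gene's strand was present at 1 of the 9 starts, that of Gsc, and at 7.59% of all promoters. The T-box sequence AGGTGTGA, searched on both strands, and the p53 half-site were present at 0 of the 9, against 1.12% and 7.13% of all promoters. On the 300 bases from 250 before to 50 after a start, vehicle H3K27ac reached only the upstream edge at Sox1 and at Eomes, and doxorubicin H3K27ac reached 0 of the 9 starts. Over the whole table the shares were 32.0% in vehicle and 32.9% in doxorubicin.

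Of these 10 regulators, 6 had H3K27ac nearby in both treatments, as did 16535 of the 21887 protein-coding genes. The median level of the regulators with a region lay below that of protein-coding genes. In vehicle 8 of the 10 genes had at least 1 region in the window and in doxorubicin 8 did, where all protein-coding genes gave 77.1% and 82.1%. These genes are short, with a median length of 4014.5 bp against 17169 bp over all genes, so their windows are also shorter. Among the 7926 protein-coding genes of at most 10000 bp, which include 9 of the 10, the shares were 62.6% and 68.5%. The windows held 42 regions covering 30916 bp in vehicle and 39 regions covering 31033 bp in doxorubicin. Their summits ran from 9 to 61 fragments in vehicle with a median of 13, and from 8 to 52 in doxorubicin with a median of 12. Over all listed regions the medians were 15 in vehicle and 13 in doxorubicin. The highest summit of a window had a median of 1.16 FPM in vehicle and 1.32 in doxorubicin over the regulators with a region, against 1.84 and 1.94 over protein-coding genes with one. Hand1 (2.86 and 3.05 FPM), Gsc in vehicle (2.95) and Mesp1 in doxorubicin (2.17) lay above these gene medians. Medians for genes of at most 10000 bp were not taken.

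**Figure D1:**
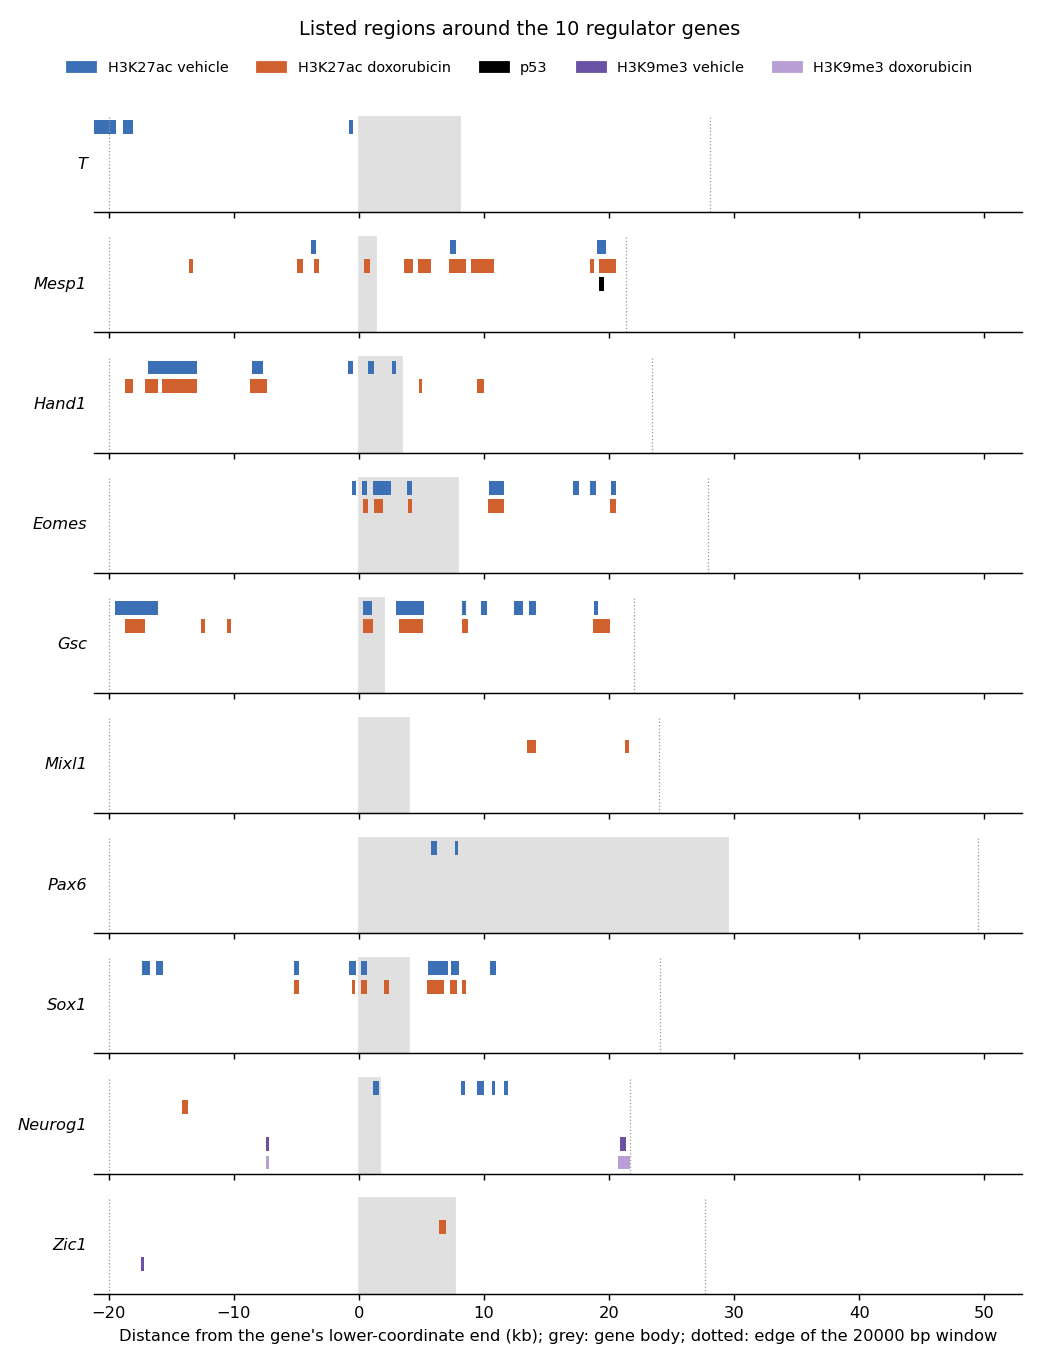
Regions of 5 lists around each of the 10 genes, drawn to scale against the distance in kb from the gene's lower-coordinate end, with the gene body in grey and the window edges dotted. H3K27ac appears at every gene in at least 1 treatment, with summits of at most 14 fragments at T, Mixl1, Pax6 and Zic1. Of all 21887 protein-coding genes, 16535 had it in both treatments, 336 in vehicle only and 1424 in doxorubicin only. The 1 p53 region lies at the far side of the Mesp1 window, and H3K9me3 appears only at Neurog1 and Zic1.

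**Figure D2:**
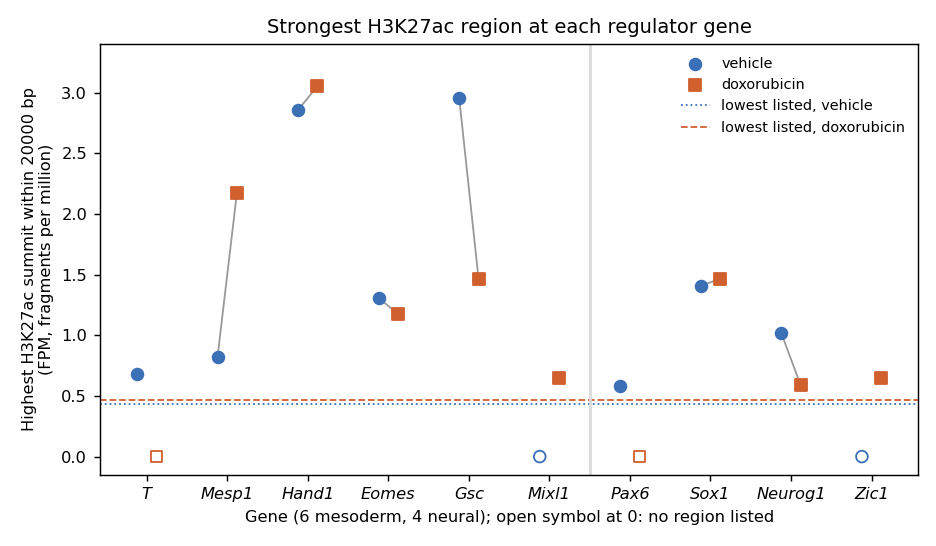
Highest H3K27ac summit in the window of each gene, in FPM, after vehicle (circles) and doxorubicin (squares), with the lowest listed level of each list as a dotted or dashed line and an open symbol where no region was listed. Mesp1 is higher in doxorubicin, Gsc and Neurog1 are higher in vehicle, and T, Mixl1, Pax6 and Zic1 have a region in 1 treatment only.

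Of the genes with H3K27ac in both treatments, Mesp1 had the highest ratio of doxorubicin to vehicle by the highest summit in the 20000 bp window. Mesp1 (chr7:79792241-79793590, minus strand) marks the first cardiovascular progenitors, and its paralogue Mesp2, which acts in somite segmentation, lies within the same window. Vehicle H3K27ac had 3 regions there, with summits of 9, 10 and 17 fragments, and doxorubicin had 10, with summits of 8 to 37. The covered length was 1618 bp in vehicle and 8376 bp in doxorubicin. Between both genes, 5875 bp upstream of Mesp1 and 9921 bp from Mesp2, a region from 79799465 to 79800806 on chromosome 7 held 37 fragments in doxorubicin (2.17 FPM) and 10 in vehicle (0.484 FPM). This 4.48-fold ratio had an interval of 2.19 to 10.1, and 0.159% of the 53498 H3K27ac clusters listed in both treatments had a higher one. Relative to the median ratio of all shared clusters it was 4.01. The doxorubicin region was 1342 bp long and the vehicle region under it 450 bp, and the doxorubicin summit at 79800396 lay beyond the vehicle region, which ended at 79799987. In addition, 7 of the 10 doxorubicin regions had no vehicle counterpart, among them one inside Mesp1 with a summit 679 bp downstream of its start and 13 fragments. For none of these 7 did the interval exceed the unlisted level of vehicle, 8 fragments.

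The p53 list placed its only region of these windows at the same locus. It lay inside Mesp2, from 79811407 to 79811844, with its summit 18105 bp from Mesp1, 128 fragments, a −log10 q of 22.2 and an enrichment of 6.85 times over background. The median fold enrichment of all 11282 p53 regions was 7.52, and 55.0% of them were higher than this one. An H3K27ac region overlapped it in both treatments, with 17 fragments at the summit of each. This was 0.823 FPM in vehicle and 0.998 in doxorubicin, a ratio of 1.21 (0.582 to 2.53). The vehicle summit at 79811381 and the doxorubicin summit at 79812604 both lay outside the p53 region and apart from each other. The ratio therefore does not compare acetylation at the p53 region itself. So 1 of the 10 genes had a p53 region, where 32.3% of all protein-coding genes and 20.0% of those of at most 10000 bp had one. At the other 9 the nearest p53 region lay between 25664 bp (T) and 300206 bp (Zic1) from the gene. The untagged ChIP and the input had a region at 0 of the 10 genes, where 7.49% and 2.57% of all genes had one.

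Gsc (chr12:104471209-104473236, minus strand), a homeobox gene of the organizer, had the lowest ratio of highest summits in the 20000 bp window. Its strongest region lay 16094 bp beyond the end of the gene, from 104451744 to 104455115 on chromosome 12, with Gsc the nearest protein-coding gene and Serpina3n the next at 37410 bp. The summit held 61 fragments in vehicle (2.95 FPM) and 25 in doxorubicin (1.47 FPM), a ratio of 0.497 with an interval of 0.299 to 0.803. The region was 3372 bp long in vehicle and 1594 bp in doxorubicin, and 2.40% of all clusters had a lower ratio. Relative to the median of all shared clusters the ratio was 0.444. On the other side of the gene, a region 959 bp upstream, within the long non-coding RNA Gm10000, held 34 fragments in vehicle and 20 in doxorubicin, a ratio of 0.713 whose interval of 0.389 to 1.27 includes 1. At the gene body both treatments had 13 fragments, with summits at 104472136 in vehicle and 104471693 in doxorubicin. Summed over the listed regions of the window, each by its highest summit, the log2 ratio was -0.40. The highest summit of the window gave -1.01, and that within 10000 bp gave -0.49. A weak region 16754 bp upstream pointed the other way, with 9 fragments in vehicle and 15 in doxorubicin. Its ratio of 2.02 had an interval of 0.828 to 5.23. The window thus held values in both directions, and the only interval without 1 was that of the distal downstream region.

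Hand1 (chr11:57828713-57832147), which acts in trophoblast, heart and extraembryonic mesoderm, carried the strongest acetylation of the set in doxorubicin and had its main regions in both treatments. A region from 57811821 to 57815741 on chromosome 11 held 59 fragments in vehicle (2.86 FPM), and the doxorubicin regions over it held up to 52 (3.05 FPM), a ratio of 1.07 (0.721 to 1.58). It lay 1206 bp from Sap30l, a corepressor subunit gene, and 12972 bp from Hand1, which makes Sap30l its nearest gene. A second region, 7698 bp from Hand1, held 38 fragments in vehicle and 47 in doxorubicin, a ratio of 1.50 (just under the limit of 1.5 before rounding) with an interval of 0.957 to 2.36. Within and next to the gene itself, vehicle had 3 weak regions of 9, 9 and 11 fragments with no doxorubicin counterpart. Doxorubicin had 3 regions that were absent from vehicle, one of 11 fragments at the end of Sap30l and a pair of 12 and 20 fragments within the non-coding RNA Gm32915. The one with 20 fragments, at 57838173 to 57838690, had a ratio of 3.03 (1.28 to 7.95) to the unlisted vehicle level of 8 fragments.

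At Eomes (chr9:118478186-118486132, plus strand), a T-box gene of endoderm, mesoderm and trophoblast, the mark lay both inside and beyond the gene. Vehicle had 8 regions covering 5001 bp and doxorubicin 5 covering 3344 bp, and each of the 5 matched a vehicle region. In each treatment 3 regions lay inside the gene. The summit nearest to the start on the gene's side, 493 bp downstream in vehicle, held 18 fragments, and 14 in doxorubicin. In both treatments this region also overlapped the non-coding RNA Gm33408. The strongest vehicle region, from 118479332 to 118480733 on chromosome 9, held 27 fragments (1.31 FPM), against 14 in doxorubicin (0.822 FPM), a ratio of 0.628 with an interval of 0.305 to 1.24. A region at the end of the adjacent non-coding RNA Gm33460 held 12 fragments in vehicle and 20 in doxorubicin, the strongest doxorubicin region of the window, a ratio of 2.02 (0.940 to 4.53). Both intervals include 1, so neither difference exceeded counting error.

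T (chr17:8434423-8442496, plus strand) and Mixl1 (chr1:180693043-180697034), both active in the primitive streak, had few and weak H3K27ac regions. At T, vehicle had 3 regions of 10, 11 and 14 fragments, 2 of them inside the neighbouring gene T2 and 1 with its summit 622 bp upstream of the start of T, inside the predicted gene LOC115486424. Doxorubicin had no region in this window, but the T2 region of 14 fragments, which crosses the window edge, overlapped a doxorubicin region of 10 fragments that lies 20130 bp from T. Mixl1 had no region in vehicle and 2 in doxorubicin, of 11 and 9 fragments, 9464 and 17274 bp from the gene. None of the T or Mixl1 regions listed in 1 treatment had an interval above the unlisted level of the other treatment.

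Among the neural genes, Sox1 carried the most H3K27ac, with its strongest regions at the same places in both treatments. Sox1 (chr8:12395519-12399555, plus strand) is an early marker of neuroectoderm and lies inside the non-coding RNA Sox1ot. Vehicle had 8 regions covering 5264 bp and doxorubicin 7 covering 3809 bp, and 5 clusters were shared. The region just inside the gene, from 12395702 to 12396199 on chromosome 8, held 29 fragments in vehicle (1.40 FPM) and 25 in doxorubicin (1.47 FPM), a ratio of 1.04 (0.587 to 1.85). Upstream of the CG-rich stretch printed above, a summit of 17 fragments in vehicle compared with 10 in doxorubicin. These summits lay 554 and 310 bp upstream of the start, and only the vehicle region touched the printed stretch. The 5 ratios ran from 0.713 to 1.11, and every one of their intervals included 1. The regions in 1 list were 3 in vehicle of 10 to 12 fragments and 2 in doxorubicin of 9.

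At Neurog1 (chr13:56250478-56252180, minus strand), a neurogenic factor of sensory and cranial neurons, H3K27ac was listed at different places in vehicle and doxorubicin. Vehicle had 5 regions, 1 inside the gene with 14 fragments and 4 in an upstream stretch with 9, 13, 17 and 21 fragments. Doxorubicin had none of these and a single region of 10 fragments on the other side of the gene, 13629 bp away. The strongest vehicle region, from 56259903 to 56260505 on chromosome 13, 7723 bp upstream, held 1.02 FPM. Its ratio to the unlisted doxorubicin level of 7 fragments was 2.48 with an interval of 1.01 to 6.89, and the other 4 had intervals that included 1. Read as the highest summit of the window, the ratio of doxorubicin to vehicle was 0.577 (0.243 to 1.28). This is a log2 ratio of -0.79, and within 50000 bp of the gene the highest summits gave 1.21, in the other direction. Summed over the listed regions of the 20000 bp window, 5 in vehicle and 1 in doxorubicin, each by its highest summit, the log2 ratio was -2.61.

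Pax6 (chr2:105668896-105698410, plus strand), a regulator of eye and forebrain, had 2 weak vehicle regions inside the gene, of 10 and 12 fragments, and none in doxorubicin. Zic1 (chr9:91358058-91365768, minus strand), a regulator of dorsal neural tube and cerebellum, had none in vehicle and 1 in doxorubicin, of 11 fragments inside the gene with its summit 993 bp downstream of the start, next to the divergent gene Zic4. Outside the windows the nearest H3K27ac of Pax6 was 52549 bp away in vehicle and 147072 bp in doxorubicin, and that of Zic1 95430 and 96042 bp. Both genes thus sit in long stretches with little listed acetylation, and for none of these 3 regions did the interval exceed the unlisted level of the other treatment.

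Counted over all 10 genes, 21 of the 42 vehicle regions (50.0%) had no overlap in doxorubicin, and 18 of the 39 doxorubicin regions (46.2%) had none in vehicle. Over the whole genome these shares were 28.8% and 46.5%. Weak regions are more often found in 1 list: among regions with a summit of at most 11 fragments the genome-wide shares were 51.3% in vehicle and 72.3% in doxorubicin, and 12 of 16 and 13 of 19 such regions of these genes were in 1 list. The neural genes had 10 of 15 vehicle regions without a counterpart, 5 of them at Neurog1, and the mesoderm genes 11 of 27. For doxorubicin regions the counts were 4 of 9 (44.4%) at the neural and 14 of 30 (46.7%) at the mesoderm genes. Of the 39 regions in 1 list, 2 had an interval above the unlisted level of the other treatment, that of 21 fragments at Neurog1 and that of 20 fragments at Hand1. The share of such regions over the whole genome was not counted. At gene level, T and Pax6 had H3K27ac in vehicle only, as did 1.54% of all protein-coding genes, and Mixl1 and Zic1 in doxorubicin only, as did 6.51%. The call at T depends on the window edge, since a doxorubicin region that overlaps its vehicle region of 14 fragments lies 20130 bp from T. These shares were not counted for short or weakly marked genes.

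The 21 H3K27ac clusters of these genes listed in both treatments had a median doxorubicin to vehicle ratio of 1.07, close to the 1.12 over all 53498 clusters. At a ratio of at least 1.5 either way, 3 clusters were higher in doxorubicin, where 25.9% of all clusters were, and 2 were lower, where 10.6% were. Only the Mesp1 and Gsc clusters described above had intervals that excluded 1. The share of all clusters with such an interval was not counted, so these 2 have no baseline. Taking the highest summit of each window, the 6 genes with H3K27ac in both treatments had a median ratio of 0.971, and the median over 16535 protein-coding genes was 1.07. Mesp1 was above 1.5, with 2.64 (1.45 to 5.00), as were 24.0% of all genes, and Gsc and Neurog1 were below the reciprocal, as were 9.89%. Hand1, Eomes and Sox1 lay between 0.898 and 1.07, and their intervals included 1. At Mesp1, Eomes and Neurog1 the highest summits of the treatments lay in different regions, so these ratios do not compare the same site. The matched clusters at Eomes had ratios from 0.628 to 2.02. A cluster ratio takes the highest summit of each treatment anywhere in the cluster, so it too can compare summits that lie apart. In the Eomes cluster with 2.02, the summits lay at 118488745 in vehicle and 118489674 in doxorubicin.

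**Figure D3:**
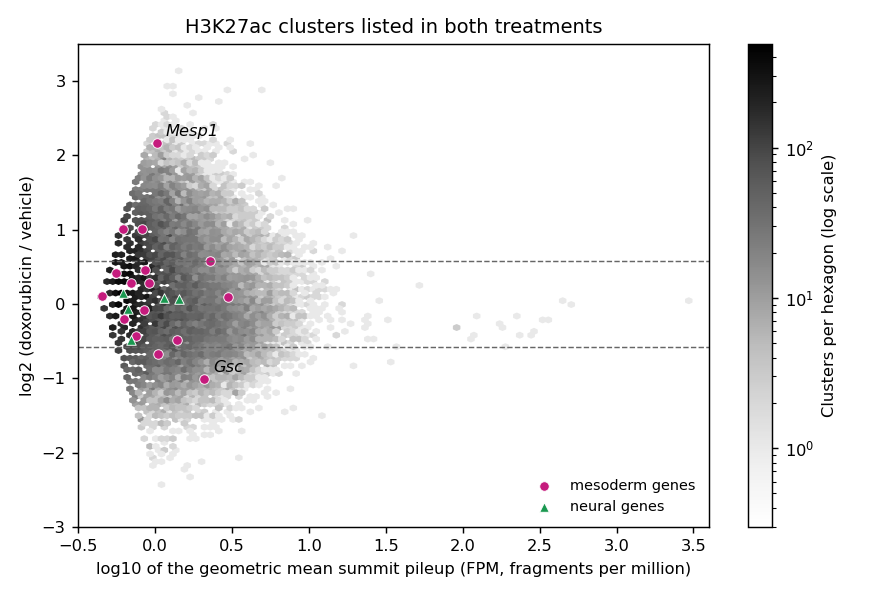
Log2 ratio of doxorubicin to vehicle summit pileup against the mean summit level (log10 scale) for all 53498 H3K27ac clusters listed in both treatments (grey hexagons), with the 21 clusters of the regulator genes on top and dashed lines at a ratio of 1.5 either way. The Mesp1 cluster lies near the upper edge of the cloud, with 0.159% of all clusters at a higher ratio. The Gsc cluster lies in the lower part, with 2.40% at a lower ratio, and the others lie within the cloud.

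H3K9me3 was listed at 2 of the 10 genes in vehicle, Neurog1 and Zic1, and at 1 in doxorubicin, Neurog1, against 55.5% and 61.5% of all protein-coding genes and 45.3% and 51.9% of those of at most 10000 bp. At Neurog1 the same 2 places were marked in both treatments, with 10 and 14 fragments in vehicle and 11 and 12 in doxorubicin, at ratios of 1.22 (0.471 to 3.21) and 0.952 (0.402 to 2.22). They lay 7271 and 19425 bp from the gene, apart from its H3K27ac regions. Zic1 had 1 vehicle region of 9 fragments, 1 above the lowest listed pileup of 8, at 17160 bp from the gene within the non-coding RNA Gm40546. The mesoderm genes had none in either treatment, and their nearest H3K9me3 outside the windows began 27314 bp from T in vehicle and 150303 bp from Mesp1.

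Other genes of the same lineages, a list of 20 mesoderm and 20 neural genes beyond these 10, were counted in the same way. Of these 40 genes, 29 were marked after vehicle and 33 after doxorubicin, where all protein-coding genes gave 77.1% and 82.1%. The mark was in vehicle only at 1 (Zic2) and in doxorubicin only at 5 (Hand2, Neurog2, Pou3f2, Six3 and Zic4). The shares over all genes were 1.54% and 6.51%. The ratio of highest summits was at least 1.5 in 11 of the 28 with the mark in both treatments and at most its reciprocal in 2. Over all genes these shares were 24.0% and 9.89%. The median ratio of the 28 was 1.16, against 1.07 over all genes. Its largest values were 2.94 at Foxc2 (1.54 to 5.94), a regulator of mesenchyme and vessels, 2.64 at Mesp2, which shares its region with Mesp1, and 1.85 at Lefty2 (1.21 to 2.86), an inhibitor of Nodal signalling. The smallest were 0.462 at Kdr (0.177 to 1.09), which encodes a VEGF receptor, 0.566 at Tbx6 (0.404 to 0.783), a factor of presomitic mesoderm, and 0.751 at Nes (0.464 to 1.20), which encodes nestin. A p53 region lay in the windows of 12 of the 40, against 32.3% of all protein-coding genes and 20.0% of those of at most 10000 bp. H3K9me3 lay in the windows of 15 in vehicle and 20 in doxorubicin. The shares over all genes were 55.5% and 61.5%, and 45.3% and 51.9% over those of at most 10000 bp. Zic4 and Mesp2 share regions with the windows of Zic1 and Mesp1 and add no independent value.

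The median level of the mark at these genes lay below that at pluripotency genes in both treatments. For 12 endoderm and trophoblast regulators the median highest summit was 1.04 FPM in vehicle and 1.20 in doxorubicin, with 10 of 12 genes marked in each treatment. For 12 pluripotency genes it was 6.32 and 5.19, with all 12 marked in both. The strongest regulator summit of either treatment, 3.05 FPM at Hand1 in doxorubicin, was below the doxorubicin summits of the pluripotency genes other than Sall4, with 2.93 FPM, and Nr0b1, with 0.704. In vehicle the strongest, 2.95 FPM at Gsc, was below those of the pluripotency genes other than Nr0b1, with 0.920.

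**Figure D4:**
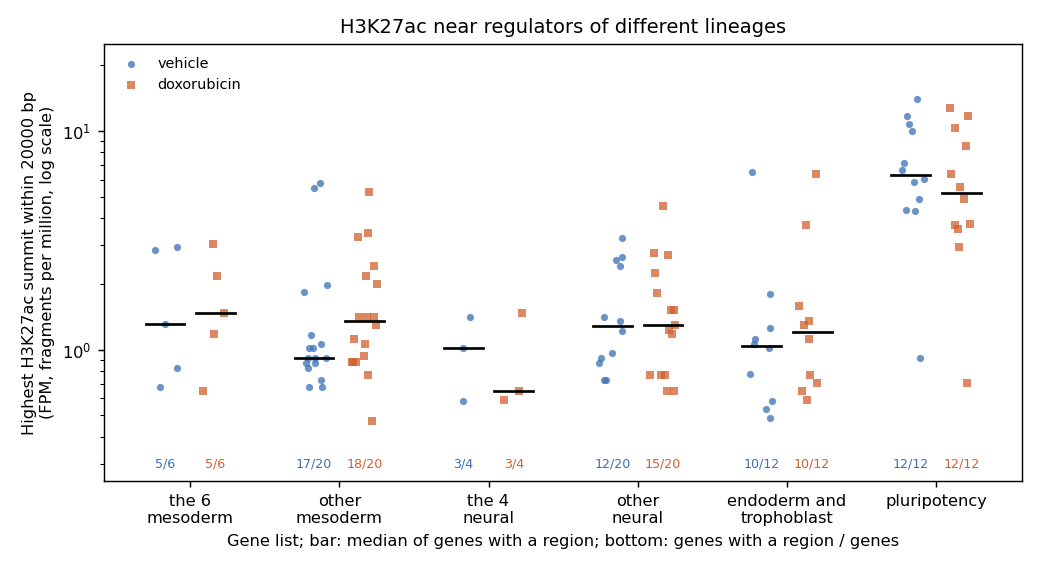
Highest H3K27ac summit within the window, in FPM on a log scale, for each gene of 6 lists after vehicle (circles) and doxorubicin (squares), with bars at the median of genes that have a region and the number of such genes below. Mesoderm, neural, endoderm and trophoblast genes lie mostly near 1 FPM in both treatments, and the pluripotency genes lie mostly above 3.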

How the data were processed

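The ChIP-seq series had 14 libraries in 7 groups of 2, each group deposited as 1 peak list. The aligner was Bowtie2 2.2.6, per the submitters' processing notes. Per the file headers, MACS2 2.2.5 called peaks on the pooled libraries of a group at a q-value of 0.05, on mm10 with an added contig, which was left out here. Per the file headers, 1 fragment was kept per position, the p53 and untagged lists were called against the input, and the others without a control. Only the p53 call used a local background, per the file headers, so p53 and untagged counts do not come from equal calls. The deposited pileup is a signal, the number of fragments over a summit, and the p53 and untagged pileups were scaled by the authors' call to the input depth. The deposited −log10 q and the deposited fold enrichment over background are the authors' values and served only to describe or filter regions. Both p53 libraries bear the same replicate number in their titles.

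Summits of 1 interval were joined into 1 region with its highest pileup. Gene coordinates came from the RefSeq table (GRCm38.p6), which gives no exons, and strands from the promoter table. Windows were the gene body and 20000 bp to either side, with an overlap of at least 1 bp. Pileups were divided by the list's fragments and multiplied by 1000000 (FPM), with ratios given 95% exact binomial (Clopper-Pearson) intervals, and a ratio of 1.5 either way was counted as higher or lower. Regions of both treatments that overlapped were joined into clusters, with the highest summit of each treatment taken from anywhere in the cluster. Fragments are not independent molecules, so intervals cover counting error only. The named genes are all 10 regulators, neighbours that carry or lie nearest to a region described, and, from the lists of 20 other mesoderm and 20 other neural genes, those marked in 1 treatment and the 3 with the largest ratio either way. The genes and lists were chosen with earlier results of these data known. The backgrounds over genes of at most 10000 bp and over summits of at most 11 fragments, and the minimum of 1 FPM, were chosen after seeing the data. The overlap code was tested on simulated data. Alternatives were windows of 10000 and 50000 bp, stricter q and fold limits, lists of equal length, scaling to shared regions, and summed summits. Summed summits took the highest of each listed region, so unlisted places added nothing to them. Python 3.11.15 was used with numpy 2.4.6, pandas 2.3.3, scipy 1.17.1 and matplotlib 3.10.9.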

Additional observations from a re-analysis of the deposited data

How the results depend on the processing

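No paired analysis was possible because the 2 libraries of a group are joined in every peak list, and leaving out a library was impossible for the same reason. No value has a replicate error, and at summits of 8 to 12 fragments counting error and the listing limit cover most differences between treatments. The cause of each shift below was not tested.

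Genes with H3K27ac in vehicle numbered 5 instead of 8 at a summit of at least 1 FPM, a limit chosen after seeing the data. In doxorubicin they numbered 5 instead of 8 at −log10 q of at least 5, at a fold enrichment of at least 4, and at 1 FPM. A p53 region lay within 10000 bp of 0 genes and within 50000 bp of 4, instead of 1. H3K9me3 in vehicle lay at 1 gene within 10000 bp, at 4 within 50000 bp, and at 1 under either the q or the fold limit, instead of 2, and in doxorubicin at 4 within 50000 bp instead of 1. Regions in doxorubicin only, 18 in the report, numbered 11 within 10000 bp, 45 within 50000 bp, 4 under the q limit, 6 under the fold limit, 7 with lists of equal length and 3 at 1 FPM. Regions in vehicle only, 21 in the report, numbered 15 within 10000 bp and 35 within 50000 bp. They numbered 6 under the q limit, 9 under the fold limit, 27 with lists of equal length and 2 at 1 FPM. Genes with a higher strongest summit in doxorubicin numbered 3 within 50000 bp and 2 by summed summits, instead of 1. Genes with a lower one numbered 0 within 10000 bp and 1 each within 50000 bp, under the q limit, under the fold limit, with equal lists and by summed summits, instead of 2. The median log2 ratio, -0.04 in the report, was 0.063 within 10000 bp and under the q limit, 0.37 within 50000 bp, -0.20 when scaled to the median of shared regions, which lay at 0.16, and -0.27 by summed summits. Neurog1 reversed, from -0.79 to 1.21 within 50000 bp. Gsc had -0.49 within 10000 bp and Hand1 0.59 by summed summits, where it was 0.10. Neurog1 had -2.61 by summed summits. Mesp1, 1.40 in the report, lay between 1.24 and 2.22 with the 10000 and 50000 bp windows, the q limit, scaling to shared regions and summed summits, the settings run for single genes.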
